A study of Mus musculus with 6 samples.

Results

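The transcription factors that divide the embryonic spinal cord into progenitor domains were followed in newborn mice labelled Myt1-/- and WT. The set held 10 genes, listed by their known roles and found by symbol among the 55487 genes of the deposited table. From dorsal to ventral they were Pax3, Pax7, Pax6, Gsx1, Irx3, Irx5, Dbx2, Nkx6-1, Nkx2-9 and Foxa2, and each matched 1 row. RNA came from the thoracic spinal cord at postnatal day 0 (P0). There were 3 Myt1-/- samples and 3 wild-type samples (WT), without any treatment in the labels. The labels give neither the strain nor how the Myt1 allele was made. They do not name the animals either, so the p-values below speak for the scatter of these 6 samples, which may be partly technical. Myt1 is a neural transcription factor with zinc fingers, and the series asks which genes lie downstream of it while oligodendrocytes mature.

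In the embryonic neural tube, BMP and Wnt signals from the roof plate and Sonic hedgehog from the floor plate act on dividing cells along the ventricle. They answer by switching on different homeodomain and paired-domain factors at different dorsoventral positions, and several of these factors repress each other across the domain borders. Each domain then gives rise to its own classes of neurons and later of glia. At birth most neurons have formed, and what remains of this code is carried by radial glia, by cells on the way to the ependyma and by some neurons and glia that keep a factor of their domain of origin.

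The promoters are shown for the 2 factors whose values did not overlap between genotypes, Nkx6-1 and Foxa2, and for Pax6, whose values barely moved. The Myt1 family binds DNA at the core AAGTT, so that core, read on both strands, is written in capitals (AAGTT on the printed strand, AACTT where it lies on the other strand). Each window runs from 250 bases before to 50 bases after a RefSeq transcription start on GRCm38.p6, 5′ to 3′ along the gene. The Foxa2 windows printed are the most upstream start and the start with the core, and a start between them is not printed. The Pax6 window is the more upstream of its pair.
Nkx6-1, chr5:101664662-101664961, minus strand: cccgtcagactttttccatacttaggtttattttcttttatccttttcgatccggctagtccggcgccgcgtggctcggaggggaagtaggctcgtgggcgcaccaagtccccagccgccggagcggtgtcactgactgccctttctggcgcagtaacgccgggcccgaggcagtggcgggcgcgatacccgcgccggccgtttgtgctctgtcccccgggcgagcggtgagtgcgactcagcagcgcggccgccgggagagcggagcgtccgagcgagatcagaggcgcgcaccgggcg
Foxa2, chr2:148046920-148047219, minus strand: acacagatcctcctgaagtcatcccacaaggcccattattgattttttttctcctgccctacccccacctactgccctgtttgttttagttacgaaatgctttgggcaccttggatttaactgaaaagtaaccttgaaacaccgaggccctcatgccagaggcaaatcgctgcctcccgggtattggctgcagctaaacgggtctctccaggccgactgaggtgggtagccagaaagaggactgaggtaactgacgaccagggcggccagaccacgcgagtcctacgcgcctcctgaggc
Foxa2, chr2:148045415-148045714, minus strand: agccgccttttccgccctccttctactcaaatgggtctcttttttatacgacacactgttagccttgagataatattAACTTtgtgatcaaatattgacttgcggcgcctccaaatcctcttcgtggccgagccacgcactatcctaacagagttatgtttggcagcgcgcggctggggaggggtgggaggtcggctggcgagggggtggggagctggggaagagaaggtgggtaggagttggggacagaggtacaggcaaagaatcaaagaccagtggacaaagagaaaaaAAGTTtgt
Pax6, chr2:105668646-105668945, plus strand: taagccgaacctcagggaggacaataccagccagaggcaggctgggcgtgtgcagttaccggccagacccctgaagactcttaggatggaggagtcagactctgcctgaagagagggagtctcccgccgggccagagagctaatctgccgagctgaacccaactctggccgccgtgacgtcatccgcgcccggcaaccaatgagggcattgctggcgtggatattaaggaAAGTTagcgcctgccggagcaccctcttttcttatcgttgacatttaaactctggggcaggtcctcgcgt

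The Nkx6-1 window and the upstream Foxa2 window held no AAGTT. Nor did the Foxa2 window that is not printed, at chr2:148045899-148046198. The downstream Foxa2 window held the core at -173 to -169 on the opposite strand and at 43 to 47 on the printed strand, counted from the transcription start. The Pax6 window at the upstream start held it at -20 to -16, and that of a second listed start, not printed for space, held it at -52 to -48 on the opposite strand. RefSeq listed 11 such windows for 8 of the 10 factors, and 5 of the 11 held AAGTT, against 39.3% of all 32851 windows of this length. A match of 5 letters is a description of the sequence and not a binding site. No window of the set held TAATTA, the palindromic core that many homeodomain proteins bind, which was in 5.29% of all windows.

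The values were TPM, which scale a gene's reads by transcript length and by the total of the sample, so levels of different genes can be set side by side. They carry no read numbers, so sequencing depth is unknown and counting error could not be given. Between 22368 and 23000 genes were above 0 in a sample. Myt1 itself was at 6.14, 5.36 and 5.28 TPM in the Myt1-/- samples, against 11.54, 11.53 and 13.61 TPM in the WT samples, so the groups did not overlap. The mean in Myt1-/- was 0.457 times that in WT (limma adjusted p = 0.140), so Myt1 RNA was lower and still present. Since the labels do not say which part of the gene was altered, these values do not show whether the allele is null. Genes of neurons and Hox genes were present, but these values do not fix the level of the cord. Tubb3, a neuronal tubulin, lay between 1247 and 1327 TPM in the Myt1-/- samples and between 1217 and 1332 TPM in the WT samples. Hoxc8, a homeobox gene whose range includes the thoracic level, lay between 65.32 and 76.12 TPM in the Myt1-/- samples and between 56.28 and 69.01 TPM in the WT samples. Hoxc6, of the same list, averaged 32.1 ± 2.23 TPM in Myt1-/- and 33.8 ± 2.25 TPM in WT (SD, n = 3 each).

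Libraries stood apart in genes of tissues that lie around the cord. Skeletal muscle genes summed to 163 TPM in Myt1-/- replicate 3 and to 69.8 TPM in WT replicate 3, against 12.3 to 19.3 TPM in the other 4 samples. The 10 sensory ganglion genes summed to 134 to 294 TPM in the Myt1-/- samples and to 249 to 558 TPM in the WT samples, lowest in Myt1-/- replicate 3 and highest in WT replicate 3. The 11 genes of meninges and mesenchyme summed to 981 to 1029 TPM in the Myt1-/- samples and to 510 to 1536 TPM in the WT samples, lowest in WT replicate 1 and highest in WT replicate 3. The 10 Schwann cell genes, of the lineage in which Pax3 is also known, summed to 88.8 to 140 TPM in the Myt1-/- samples and to 139 to 254 TPM in the WT samples. All 10 were lower in Myt1-/- (median -0.509 on the log2(TPM + 1) scale), 4 at an unadjusted limma p under 0.05, against 3.13% of all genes. Of the 10 sensory ganglion genes 9 were lower and 1 was higher. In these samples dissection and genotype cannot be told apart as sources of such differences. Hoxa5, a homeobox gene on the same planned tissue list as Tubb3 and Hoxc8, was singled out after its values were seen. It was at 39.94 TPM in WT replicate 1, against 11.30 to 18.06 TPM in the other 5 samples. Mitochondrial genes made up 11.3% of the TPM of WT replicate 1, against 8.64% to 9.04% in the other 5.

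**Figure D1:**
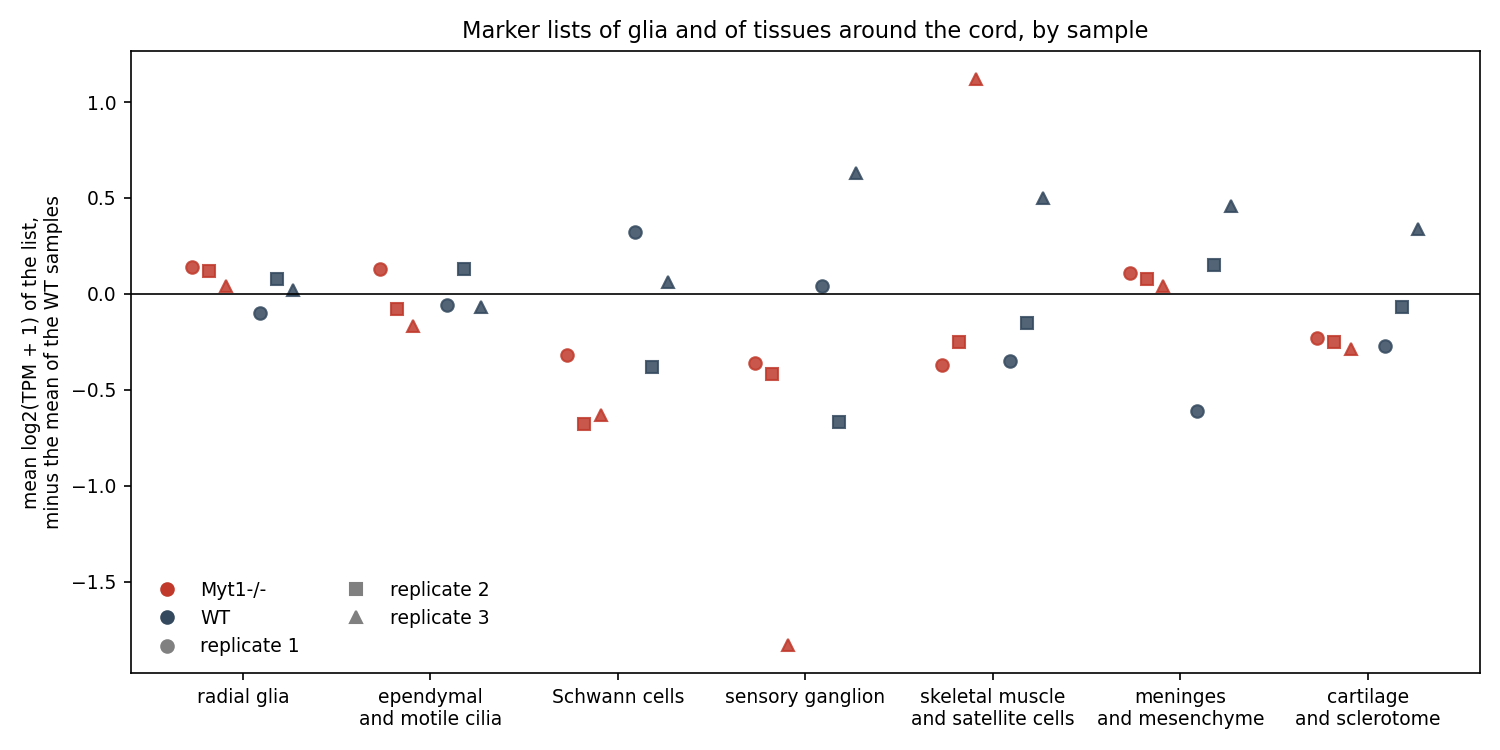
Mean log2(TPM + 1) of 7 marker lists in each sample, minus the mean of the 3 WT samples, with Myt1-/- samples in red left of WT samples in dark blue and a symbol for each replicate number. Radial glia and ependymal lists stayed within 0.17 of the WT mean in every sample, while sensory ganglion genes reached -1.83 and muscle genes 1.12 in Myt1-/- replicate 3.

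Across all genes, limma called none of 15962 at an adjusted p under 0.05 (0%), while 1189 (7.45%) had an unadjusted p under 0.05. Of these 690 were higher in Myt1-/-, against 551 of 1207 after median-ratio scaling and 501 of 1252 without WT replicate 1. Of the 10 factors, 7 had a mean of at least 1 TPM over the 6 samples and were tested, and none passed the adjusted threshold. Of these 7, 2 had an unadjusted p under 0.05: Nkx6-1, higher in Myt1-/- (4.32% of all genes were higher at that threshold), and Foxa2, lower (3.13% of all genes). The same 2 were those without overlap between the groups. Foxa2 reached the limit of 1 TPM only through the WT samples, so its place in both counts is not independent of its difference. Over all genes tested the groups did not overlap in 14.3%, with every Myt1-/- sample above the WT samples in 8.91% and below them in 5.38%. The median difference of the 7 was 0.054 on the log2(TPM + 1) scale, against 0.025 over all genes tested, and 4 of the 7 differences were positive, against 57.5% of all genes. Pax7, Gsx1 and Nkx2-9 lay under the limit of 1 TPM and are given as levels.

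The factors covered a wide range of levels, and their order along the neural tube was not their order in abundance. Dbx2 was highest, at a mean of 20.6 TPM over the 6 samples, above 56.2% of the genes tested. Pax6 followed at 10.8 TPM and Nkx6-1 at 7.67 TPM, and each of these 3 was separated from the next in all 6 samples. Irx5 at 4.74 TPM and Irx3 at 4.67 TPM could not be ordered, since Irx5 was the higher in 2 of the 6 samples. Pax3 at 1.63 TPM, Foxa2 at 1.20 TPM and Gsx1 at 0.655 TPM overlapped in their ranges, as did Gsx1 with Pax7 at 0.355 TPM. Nkx2-9 was listed at 0 in all 6 samples. The 10 factors together summed to 56.2, 53.3 and 50.8 TPM in the Myt1-/- samples and to 57.2, 52.7 and 44.0 TPM in the WT samples, and the sums of the groups overlapped.

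**Figure D2:**
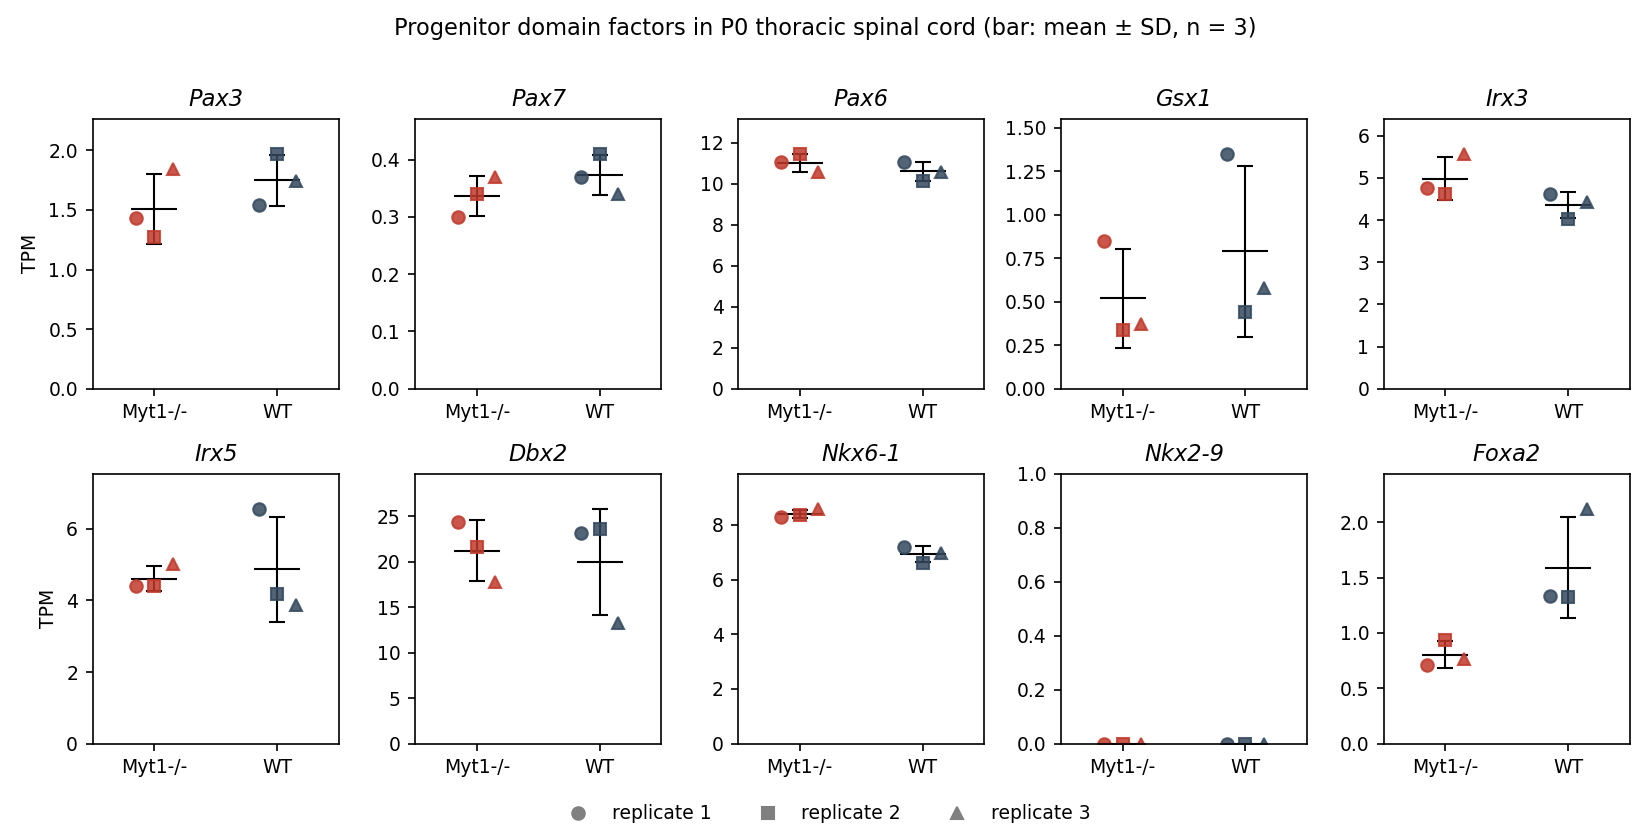
TPM of the 10 factors from dorsal to ventral, each panel starting at 0, with the 3 Myt1-/- samples in red left of the 3 WT samples in dark blue, a symbol for each replicate number, and black bars for the mean ± SD. Nkx6-1 and Foxa2 are the factors whose groups do not overlap, with Nkx6-1 at 8.30 TPM or more in every Myt1-/- sample and at 7.20 TPM or less in WT, and Foxa2 at 0.94 TPM or less in every Myt1-/- sample and at 1.32 TPM or more in WT.

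Dorsal factors were low and gave no difference beyond the spread of the samples. Pax3 (ENSMUSG00000004872, chromosome 1, 78101267 to 78197134, minus strand, GRCm38), a paired-box factor of dorsal progenitors and of the neural crest, was at 1.43, 1.27 and 1.84 TPM in the Myt1-/- samples and at 1.54, 1.97 and 1.74 TPM in the WT samples. The groups overlapped, and its difference was -0.13 on the log2(TPM + 1) scale (95% interval -0.54 to 0.27). Its paralog Pax7 (chromosome 4, 139737062 to 139833528, minus strand), known from the same dorsal cells and from the satellite cells of muscle, was at 0.30, 0.34 and 0.37 TPM in the Myt1-/- samples and at 0.37, 0.41 and 0.34 TPM in the WT samples. Pax3 was 4.49 ± 0.663 times Pax7 in the Myt1-/- samples and 4.69 ± 0.487 times Pax7 in the WT samples (SD, n = 3 each), so the ratio of the pair differed by less than its spread.

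Because Pax3 and Pax7 also mark muscle precursors, their levels were set beside the muscle genes. In Myt1-/- replicate 3 Mylpf, a myosin light chain of fast muscle, was at 46.64 TPM, against 1.05 and 1.98 TPM in the other Myt1-/- samples. Pax7 at 0.37 TPM and Pax3 at 1.84 TPM also had their highest Myt1-/- values there, and Pax7 was 0.37 TPM in WT replicate 1 as well. In the WT group Mylpf was 17.13 TPM in replicate 3, where Pax7 had its lowest WT value. Myod1 and Myf5, factors of muscle precursors, did not exceed 0.30 TPM in any of the 6 samples. Myog, of the same list, was at 0.21, 0.18 and 0.52 TPM in the Myt1-/- samples and at 0.06, 0.00 and 0.12 TPM in the WT samples. The part of muscle in the Pax3 and Pax7 values was not tested.

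Gsx1 (chromosome 5, 147188696 to 147190947, plus strand), a homeobox factor of dorsal progenitors that give rise to inhibitory and excitatory dorsal horn neurons, varied most within the groups. It was at 0.85, 0.34 and 0.37 TPM in the Myt1-/- samples, against 1.35, 0.44 and 0.58 TPM in the WT samples. Replicate 1 was the highest of each genotype, and the groups overlapped. The SD was 55.0% of the mean in Myt1-/- and 62.0% in WT. Its paralog Gsx2 did not exceed 0.17 TPM.

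Pax6 (ENSMUSG00000027168, chromosome 2, 105668900 to 105697364, plus strand), which marks progenitors over much of the dorsoventral axis at graded levels and is kept by some astrocytes, was among the steadiest of the set. It was at 11.06, 11.45 and 10.59 TPM in the Myt1-/- samples and at 11.07, 10.13 and 10.58 TPM in the WT samples. The groups overlapped, the SD was 3.90% of the mean in Myt1-/- and 4.44% in WT, and the difference was 0.05 with a 95% interval of -0.14 to 0.25. Pax6os1, an antisense gene that overlaps the start of Pax6 without shared exon bases, did not exceed 1.13 TPM.

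The Iroquois factors Irx3 and Irx5 lie on chromosome 8 and act in progenitors dorsal to the motor neuron domain, where Irx3 is known from chick embryos to repress Olig2 across the border. Irx3 (91798525 to 91802067, minus strand) was at 4.76, 4.62 and 5.57 TPM in the Myt1-/- samples and at 4.63, 4.03 and 4.43 TPM in the WT samples. The lowest Myt1-/- value lay just under the highest WT value, so the groups overlapped, and the difference was 0.16 (95% interval -0.14 to 0.45). The antisense gene Irx3os shares 124 exon bases with it and reached at most 0.42 TPM. Whether the counting used strand is not given in the sources used here.

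Irx5 (92357625 to 92376286, plus strand) was at 4.41, 4.41 and 5.02 TPM in the Myt1-/- samples, against 6.56, 4.18 and 3.88 TPM in the WT samples. WT replicate 1 alone stood above the rest, and the other 2 WT samples lay below every Myt1-/- sample. The difference of -0.04 (95% interval -0.49 to 0.41) became 0.16 without WT replicate 1. WT replicate 1 was also the library with the highest Hoxa5, the highest mitochondrial share and the lowest meningeal sum, and the part of these in the Irx5 value was not tested. Crnde, the noncoding gene next to Irx5 on the other strand, was likewise highest in WT replicate 1, at 8.35 TPM, with 5.85, 5.65 and 4.84 TPM in the Myt1-/- samples and 6.10 and 5.16 TPM in the other WT samples. The ratio of Irx3 to Irx5 was 1.08 ± 0.0310 in Myt1-/- and 0.937 ± 0.219 in WT (SD, n = 3 each).

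Of the other Iroquois genes, Irx1 and Irx2 were the more abundant. Irx1 averaged 15.3 ± 1.56 TPM in Myt1-/- and 14.0 ± 0.767 TPM in WT, and Irx2 7.74 ± 1.51 TPM in Myt1-/- and 6.20 ± 0.702 TPM in WT (SD, n = 3 each), with differences of 0.11 and 0.27 that did not pass. Irx4, at 0.980 TPM in Myt1-/- and 1.18 TPM in WT, did not pass either.

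Dbx2 (ENSMUSG00000045608, chromosome 15, 95623563 to 95655960, minus strand), a homeobox factor of the intermediate domains, was the most abundant member and varied strongly between samples of a genotype. It was at 24.42, 21.57 and 17.73 TPM in the Myt1-/- samples and at 23.14, 23.63 and 13.32 TPM in the WT samples. Replicate 3 was the lowest in both genotypes and the groups overlapped. Dbx2 made up 34.9% to 43.4% of the summed TPM of the 10 factors in the Myt1-/- samples and 30.3% to 44.8% in the WT samples. The difference was 0.11 (95% interval -0.43 to 0.66) and became -0.14 without WT replicate 3. Replicate 3 of each genotype was also the sample with the most muscle RNA, whose part in the Dbx2 value was not tested. The paralog Dbx1, which marks the neighbouring ventral interneuron domain in the embryo, did not exceed 0.05 TPM.

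Nkx6-1 (ENSMUSG00000035187, chromosome 5, 101658139 to 101664996, minus strand), a homeodomain factor of the ventral domains that is needed for motor neuron and ventral interneuron identity, was at 8.30, 8.35 and 8.59 TPM in the Myt1-/- samples, against 7.20, 6.61 and 6.99 TPM in the WT samples. Every Myt1-/- sample lay above every WT sample. Its mean was 8.41 ± 0.155 TPM in Myt1-/- and 6.93 ± 0.299 TPM in WT (SD, n = 3 each), a ratio of 1.21. The difference was 0.25 (SE 0.09, 95% interval 0.03 to 0.46), with an unadjusted p of 0.0295 and an adjusted p of 0.669 by limma, so Nkx6-1 did not pass. The unadjusted p lay over 0.05 with replicate number as a block (0.0636) and in 5 of the 6 fits with a sample removed (up to 0.0922), all but that without WT replicate 1. In the 6 fits the difference stayed between 0.22 and 0.27. The ratio of Nkx6-1 to Pax6 was 0.750, 0.729 and 0.811 in the Myt1-/- samples and 0.650, 0.653 and 0.661 in the WT samples, without overlap. It rests on the same Nkx6-1 values. The ratio to Dbx2 overlapped, at 0.340, 0.387 and 0.484 in Myt1-/- and 0.311, 0.280 and 0.525 in WT. So did the ratio to Olig2, at 0.214, 0.254 and 0.281 in Myt1-/- and 0.219, 0.191 and 0.284 in WT.

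Other genes of the ventral and intermediate domains did not share one direction. Of 11 listed 9 were tested, with 1 higher and 1 lower in Myt1-/- at an unadjusted p under 0.05 and a median of 0.153. Nkx2-2, the homeodomain factor of the most ventral neuronal progenitors that is later needed in oligodendrocytes, was at 8.48, 7.42 and 8.22 TPM in the Myt1-/- samples, against 16.90, 23.89 and 18.80 TPM in the WT samples. The ratio of Nkx2-2 to Nkx6-1 was therefore 1.02, 0.889 and 0.957 in the Myt1-/- samples and 2.35, 3.61 and 2.69 in the WT samples. Its difference was -1.19 (SE 0.14, limma adjusted p = 0.146, unadjusted p = 6.40e-05). In bulk RNA, fewer cells of a type and less RNA per cell cannot be told apart. Nkx2-9, which overlaps Nkx2-2 in the early ventral neural tube, was listed at 0 throughout, as were Nkx2-1, Nkx2-3, Nkx2-4 and Nkx2-6.

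Nkx6-2, the paralog of Nkx6-1, which is also known in myelinating oligodendrocytes, was at 2.14, 1.82 and 2.38 TPM in the Myt1-/- samples and at 4.07, 2.94 and 1.71 TPM in the WT samples, which overlapped (difference -0.28, 95% interval -0.87 to 0.30). Olig1, an oligodendrocyte lineage factor that arises in the motor neuron domain, was at 167.68, 150.78 and 149.67 TPM in the Myt1-/- samples and at 135.59, 126.52 and 106.86 TPM in the WT samples, without overlap (difference 0.35, limma adjusted p = 0.669). Its neighbour Olig2 overlapped, at 34.0 ± 4.24 TPM in Myt1-/- and 30.7 ± 5.30 TPM in WT (SD, n = 3 each). Prdm12, a zinc finger factor of an intermediate domain and of sensory neurons, was at 4.10, 3.94 and 0.32 TPM in the Myt1-/- samples and at 4.70, 2.34 and 9.90 TPM in the WT samples. The 6 samples stood in the same order by the summed TPM of the sensory ganglion genes, at 294, 282 and 134 TPM in the Myt1-/- samples and 427, 249 and 558 TPM in the WT samples. The part of ganglion in it was not tested.

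**Figure D3:**
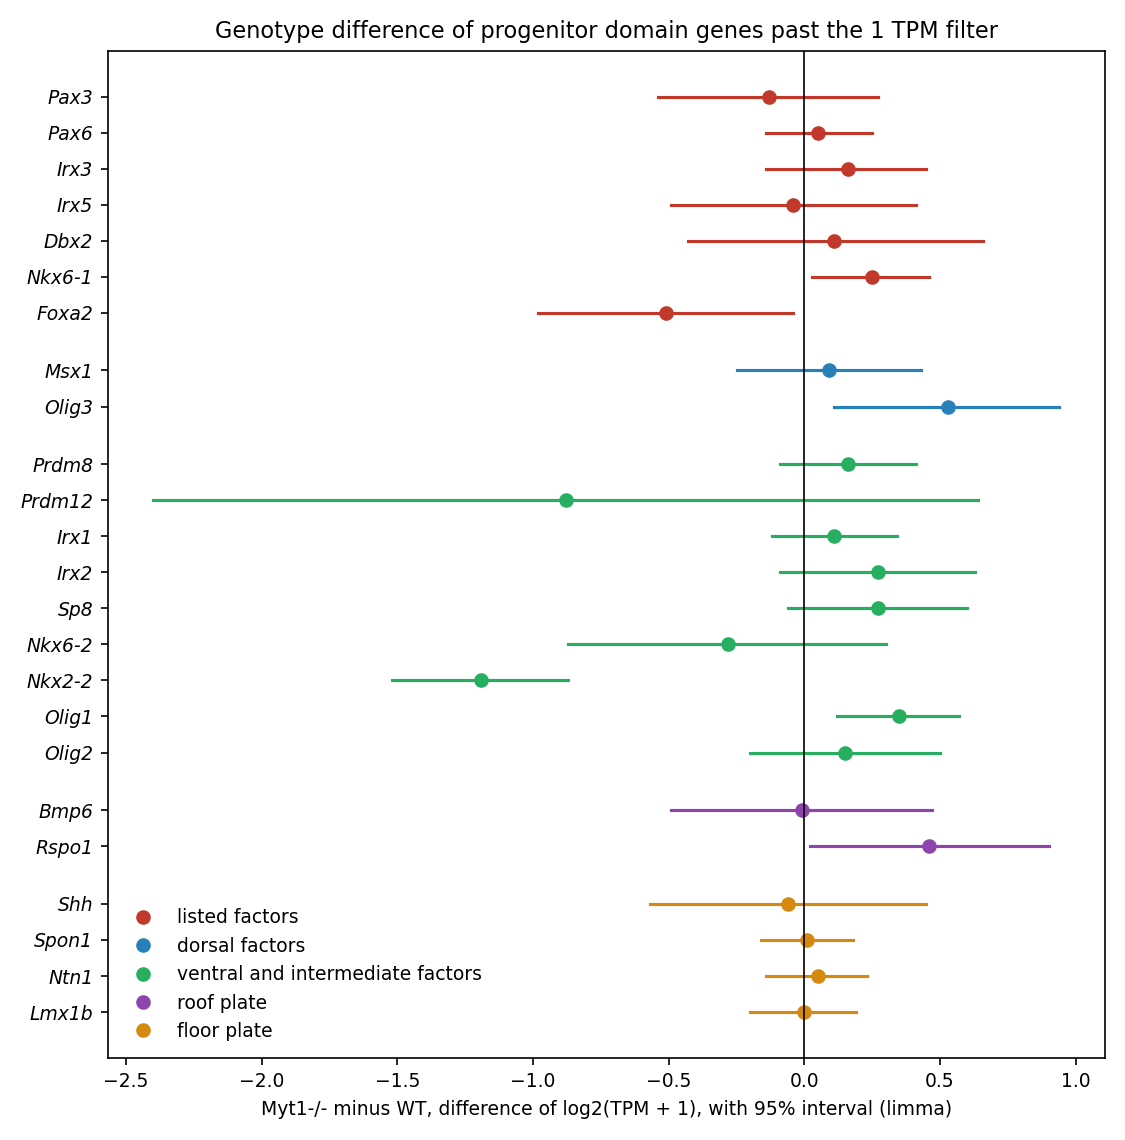
Myt1-/- minus WT differences of log2(TPM + 1) with 95% limma intervals for the 7 listed factors that were tested and for other tested genes of 4 related lists, one gene per row. Intervals of Nkx6-1, Olig3, Olig1 and Rspo1 lie above 0 and those of Foxa2 and Nkx2-2 below 0, none with an adjusted p under 0.05.

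Foxa2 (ENSMUSG00000037025, chromosome 2, 148042877 to 148046969, minus strand), the forkhead factor that defines the floor plate and is needed there for Shh, was at 0.71, 0.94 and 0.76 TPM in the Myt1-/- samples, against 1.33, 1.32 and 2.12 TPM in the WT samples. Every Myt1-/- sample lay below every WT sample. Its mean was 0.803 ± 0.121 TPM in Myt1-/- and 1.59 ± 0.459 TPM in WT (SD, n = 3 each), 1.98-fold lower. The difference was -0.51 (SE 0.20, 95% interval -0.98 to -0.04), with an unadjusted p of 0.0363 and an adjusted p of 0.669 by limma, so Foxa2 did not pass. Foxa2 reached the limit of 1 TPM only through the WT samples, so its place among the tested genes is not independent of its difference. With replicate number as a block the unadjusted p was 0.0640, and without WT replicate 3 it was 0.115. It lay over 0.05 in 4 of the 6 fits with a sample removed, those without WT replicate 3 or any Myt1-/- replicate. In those 6 fits the difference lay between -0.58 and -0.37.

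The tested genes in the rest of the floor plate list overlapped between the genotypes. Of its 8 genes 4 were tested, none had an unadjusted p under 0.05, and the median difference was 0.001. Shh, the ventral morphogen itself, was at 1.73, 1.76 and 2.46 TPM in the Myt1-/- samples and at 1.82, 1.65 and 2.99 TPM in the WT samples, which overlapped (difference -0.06, 95% interval -0.57 to 0.45). That interval includes -0.51, the difference of Foxa2. The ratio of Foxa2 to Shh was 0.410, 0.534 and 0.309 in the Myt1-/- samples, below the 0.731, 0.800 and 0.709 of the WT samples. This ratio rests on the same Foxa2 values. Spon1 and Ntn1, secreted proteins of the floor plate that other spinal cells make as well, averaged 40.4 and 49.7 TPM in Myt1-/- and 40.2 and 48.0 TPM in WT. Foxa1, the paralog of Foxa2, was under the limit, at 0.640 ± 0.0361 TPM in Myt1-/- and 0.697 ± 0.0306 TPM in WT (SD, n = 3 each).

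Foxa2 is also known from the notochord, so tissue of the vertebral column was looked at beside it. The cartilage and sclerotome genes summed to 8.24, 7.80 and 7.06 TPM in the Myt1-/- samples and to 7.64, 10.1 and 19.0 TPM in the WT samples, with WT replicate 3 highest, as for Foxa2. Of the 8 genes of that list 4 were tested, none had an unadjusted p under 0.05, and Nkx3-2 was listed at 0 in every sample. Of the 4 tested differences 3 were negative and 1 was positive, that of Acan at 0.02, and all 4 genes overlapped between the genotypes. Matn1, a cartilage matrilin under the limit, was the only gene of the list without overlap. It was at 0.15, 0.21 and 0.27 TPM in the Myt1-/- samples and at 0.54, 0.71 and 0.55 TPM in the WT samples. The notochord gene T, looked at after the values were seen, was under the limit. It was at 0.58, 0.12 and 0.16 TPM in the Myt1-/- samples and at 0.08, 0.05 and 0.04 TPM in the WT samples, without overlap. Noto was listed at 0 throughout. Of the 3 keratins added with them, which other epithelia make as well, Krt8 averaged 0.510 TPM in Myt1-/- and 0.697 TPM in WT, Krt18 1.43 TPM in Myt1-/- and 1.62 TPM in WT, and Krt19 5.82 TPM in Myt1-/- and 5.63 TPM in WT. All 3 overlapped between the genotypes. The part of cartilage or notochord in the Foxa2 difference was not tested.

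**Figure D4:**
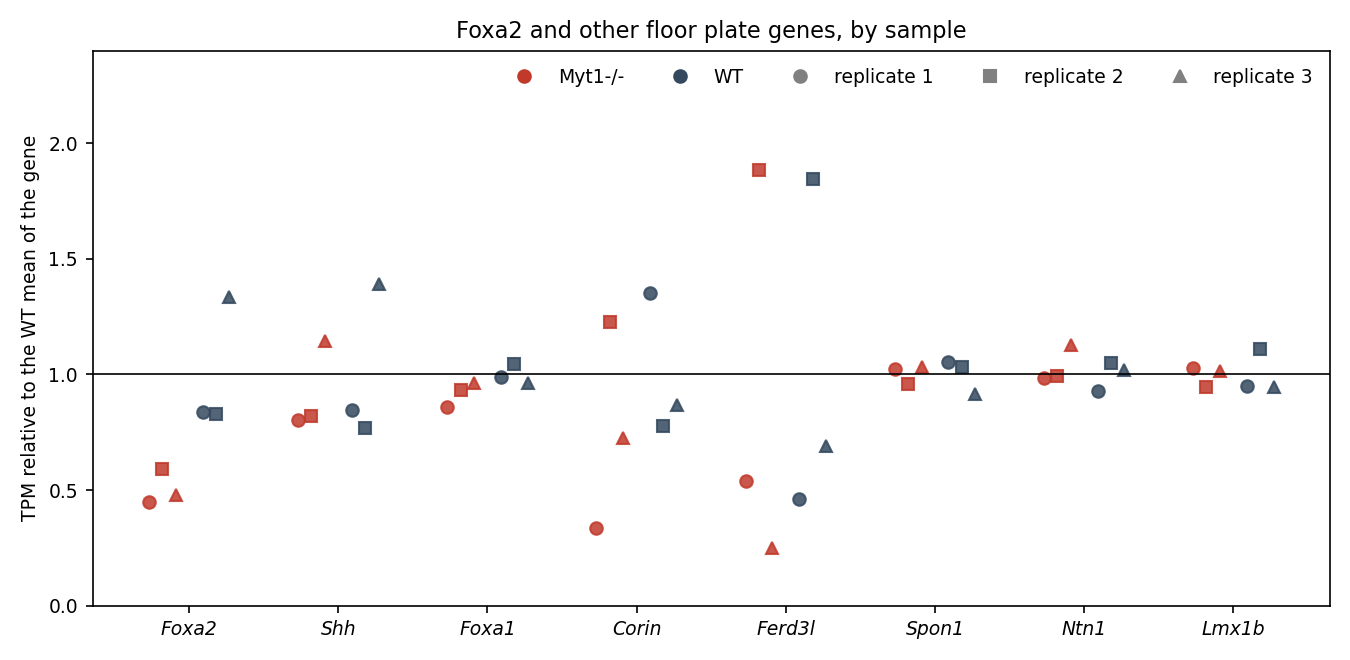
TPM of Foxa2 and 7 other floor plate genes in each sample, divided by the mean of the 3 WT samples for that gene, with Myt1-/- samples in red left of WT samples in dark blue. Of these genes, Foxa2 is the one whose groups do not overlap, while Shh, Spon1, Ntn1 and Lmx1b overlap between the genotypes, and Corin and Ferd3l, both under 1 TPM on average, scatter widely.

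The genes around the 10 factors were described from lists of other domain factors, of roof plate and floor plate, of the hedgehog and retinoid pathways and of paralogs. Together these held 67 genes, of which 38 were tested and 6 had an unadjusted p under 0.05, 4 higher and 2 lower in Myt1-/-, against 7.45% of all genes. The count was 3 without Myt1-/- replicate 3. Their median difference was 0.068, against 0.025 over all genes tested, and none passed the adjusted threshold. Of the 22 paralogs of the 10 factors 8 were tested, with a median of -0.004, and Nkx2-2 was the one with an unadjusted p under 0.05.

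Among dorsal genes, 3 of 11 were tested and 2 of these had an unadjusted p under 0.05. Olig3, a bHLH factor of the most dorsal progenitors, was at 9.68, 9.31 and 11.54 TPM in the Myt1-/- samples, against 5.03, 7.70 and 7.78 TPM in the WT samples (difference 0.53, SE 0.17, unadjusted p = 0.0203 and adjusted p = 0.669 by limma). Every Myt1-/- sample lay above every WT sample, and WT replicate 1 was the lowest of the 6. Without that sample the difference was 0.35. Msx1, a homeobox factor of the roof plate and dorsal progenitors, averaged 4.92 ± 0.262 TPM in Myt1-/- and 4.60 ± 0.816 TPM in WT (SD, n = 3 each) and overlapped. Neurog1 was listed at 0 in every sample and Atoh1 did not exceed 0.04 TPM.

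Of the 6 roof plate genes 2 were tested. Rspo1, a secreted enhancer of Wnt signalling, was at 2.93, 1.89 and 3.0 TPM in the Myt1-/- samples, against 1.39, 1.74 and 1.64 TPM in the WT samples (difference 0.46, SE 0.18, unadjusted p = 0.0414 and adjusted p = 0.669 by limma). Bmp6 overlapped, at 24.7 ± 2.96 TPM in Myt1-/- and 25.4 ± 6.73 TPM in WT (SD, n = 3 each). Lmx1a, Gdf7, Wnt1 and Wnt3a, which define the embryonic roof plate, stayed under 1 TPM in every sample.

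The signals that set the domains differed little. Of 7 hedgehog genes, all tested, none had an unadjusted p under 0.05 and the median was 0.129. Gli1, a transcription factor that is itself a hedgehog target, was at 3.62, 3.38 and 3.19 TPM in the Myt1-/- samples and at 3.92, 3.89 and 4.50 TPM in the WT samples, with every Myt1-/- sample below every WT sample (difference -0.21, 95% interval -0.51 to 0.08). Gli3, which acts mainly as a repressor of hedgehog targets, was at 2.96, 2.76 and 2.75 TPM in the Myt1-/- samples and at 2.56, 2.41 and 2.52 TPM in the WT samples, with every Myt1-/- sample above every WT sample (difference 0.13, 95% interval -0.17 to 0.43). These 2 of 7 stand against the 14.3% of all genes without overlap. Ptch1, the hedgehog receptor and a target as well, averaged 20.5 ± 0.470 TPM in Myt1-/- and 21.4 ± 1.28 TPM in WT and overlapped (SD, n = 3 each). Of 9 retinoid genes, all tested with a median of -0.069, 1 had an unadjusted p under 0.05, lower in Myt1-/-. Aldh1a2, which makes retinoic acid and is strong in meninges, overlapped at 31.7 ± 1.23 TPM in Myt1-/- and 37.7 ± 8.37 TPM in WT (SD, n = 3 each). Cyp26b1, which breaks retinoic acid down, overlapped as well and was lowest in WT replicate 1, at 13.81 TPM.

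Radial glia and ependymal genes were set beside the factors as RNA levels, which do not count cells or show which cells express the factors. Of 11 radial glia genes, which include Pax6, 1 had an unadjusted p under 0.05, Fabp7, a fatty acid binding protein, at 1882.27, 1927.21 and 1827.46 TPM in the Myt1-/- samples and at 1671.45, 1576.51 and 1593.46 TPM in the WT samples (difference 0.22, SE 0.04, limma adjusted p = 0.457). The list's median was 0.062. Of 10 ependymal genes 8 were tested, none had an unadjusted p under 0.05 and the median was -0.015. Foxj1, which drives motile cilia in ependymal cells, was at 11.5 ± 1.28 TPM in Myt1-/- and 11.2 ± 0.877 TPM in WT (SD, n = 3 each).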

How the data were processed

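RNA sequencing of 3 Myt1-/- and 3 WT samples was used. The authors deposited 1 TPM value per gene and sample. RSEM, DESeq2 and the build GRCm38.p6 are named, with no role for each, per the submitters' processing notes. The aligner is not given in the sources used here, nor is the annotation. TPM have a fixed total, so a rise of some genes lowers the rest. Depth is unknown. In the table, 1 column of values matched no labelled sample and was not used.

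Groups came from the labels. limma 3.58.1 in R 4.3.3, with a variance trend, was fitted on log2(TPM + 1) for the 15962 genes with a mean of at least 1 TPM, with genotype as the only term and Benjamini-Hochberg adjustment over all of them. The fit was tested on simulated data. Log2 differences are Myt1-/- minus WT and understate the change of low genes; folds are ratios of mean TPM. Positions come from GENCODE M21 on GRCm38, where 55141 of the 55487 IDs were found. Figures used matplotlib 3.10.9.

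The 10 factors and the gene lists were chosen with earlier results of these data known. The notochord genes were added after their values were seen. Hoxa5, which was on a planned list, and other single genes so marked were singled out after their values were seen. Named genes were the 10 factors, Myt1 and up to 4 genes per list with the smallest p; some others are named to complete a family, or for low levels, after their values were seen. Alternatives were another pseudocount, 2 filters, no trend, 2 scalings, replicate number as a block and leaving out each sample. Results for some genes of the lists are not reported here.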

Additional observations from a re-analysis of the deposited data

How the results depend on the processing

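The count of genes with an adjusted p under 0.05 over the transcriptome was 0, and 1 with a pseudocount of 0.1; with 1 sample left out it lay between 0 and 7. The count of the 10 factors with an unadjusted p under 0.05 was 2, namely Nkx6-1 and Foxa2, 0 with replicate number as a block, and 0 to 2 with 1 sample left out. In the main fit Foxa2 passed the filter only through the WT samples. The count over the 67 related genes was 6, and 3 to 6 with 1 sample left out. Of the factors, 2 turned direction: Irx5, at -0.04, lay between -0.16 and 0.16 with 1 sample left out, positive without WT replicate 1, and Dbx2, at 0.11, between -0.14 and 0.25, negative without WT replicate 3. Neither had passed, and the cause was not tested. In all other fits run, the 7 tested factors kept their direction and their side of the adjusted threshold. Without the filter, Pax7 differed by -0.04 and Gsx1 by -0.22. With a pseudocount of 0.1 the Foxa2 difference was -0.88. The median difference of all genes was 0.025, 0.0021 after median-ratio scaling and 0.013 after upper-quartile scaling, and median-ratio scaling brought the genes higher in Myt1-/- to 551 of 1207 at an unadjusted p under 0.05, against 690 of 1189. The labels share replicate numbers without saying that they mark a litter or batch; deviations of same-numbered samples correlated at 0.031, -0.070 and 0.061 across genes, so the numbers were not taken as pairs. TPM carry no depth, and factors near or under 1 TPM rest on the spread of 3 samples a group.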
